A study of Mus musculus with 8 samples.

Results

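The brain of male mice given lead acetate in drinking water at the low dose of 100 mg/L was compared here with the brain of male mice given distilled water, after 3 weeks. The low-dose brain and the control brain are 2 of the 8 samples of the study, which also holds a high-dose brain (1000 mg/L), 3 kidneys and 2 livers. Each was hybridised to 1 Agilent one-colour array, all on 1 slide. The labels give no strain, no age, no brain region and no word on pooling, and the RNA came from small tissue pieces. With 1 array on each side there is no replicate check, so sizes are described and no p-value is given. Which piece of the brain was sampled and which dose the animal received cannot be told apart.

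Lead is a divalent metal that can take the place of calcium and zinc in proteins. It is known for blocking delta-aminolevulinic acid dehydratase, an enzyme of heme synthesis, and for acting on NMDA-type glutamate receptors. In brain tissue, many transcripts also mark a region: medium spiny neurons of the striatum, which carry dopamine receptors, and granule and pyramidal cells of the hippocampus each have genes of their own.

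A gene's level is the log2 processed spot signal minus that array's 75th percentile, and a difference is the low-dose level minus the control level. Of 37324 gene names on the array, 22740 (60.9%) were measured: at least 1 of their probes exceeded background clearly and stayed below saturation in both brains. The signal at the 75th percentile was 947 on the low-dose array and 954 on the control array, and 65.8% of spots on the low-dose array and 64.0% on the control array were well above background. The median difference over all measured genes was -0.00 with an SD of 0.25, and 95.7% of genes lay within 0.5 of 0. A call needed a difference of at least 1 in size, a 2-fold change, that was also more than 3 times the array error, the combined error of both spots as the scanner software gives it, whose median was 0.21. That error covers the spots and not the animals. It includes a relative term of 10% from the scanner software, so it was about 0.20 for any bright gene. Spots of repeated probes gave a smaller SD, 0.072 for a difference of 2 spots. By the full rule 107 genes (0.471%) were higher and 70 (0.308%) lower in the low-dose brain, 177 (0.778%) in all. Without the error condition the number was 178, so the size decided nearly every call. Just outside the rule, 52 genes lay between 0.9 and 1 in size, the nearest of them at 0.998.

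Position on the slide accompanied some of these calls. On the control array 3 neighbouring spots in 1 column (rows 271 to 273) read 83986, 71793 and 86741, against 34.1, 186 and 45.3 on the low-dose array. The scanner software had marked 2 of them as outliers, and the last, a predicted gene named Gm34028 and singled out after its values were seen, passed with a difference of -10.89. Every call was therefore checked for a spot within 2 rows and 1 column that differed the same way by at least 2 on the log2 scale, a check added after the data were seen. Such a neighbour stood beside 36 of the 177 called genes (20.3%), against 865 of 22562 genes with a difference under the size rule (3.83%). Without these genes' probes 90 genes were higher and 51 lower. The striatum, hippocampus and immediate early counts below were the same with and without those probes. Genes named below that lie beside such a spot are marked as such.

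**Figure D1:**
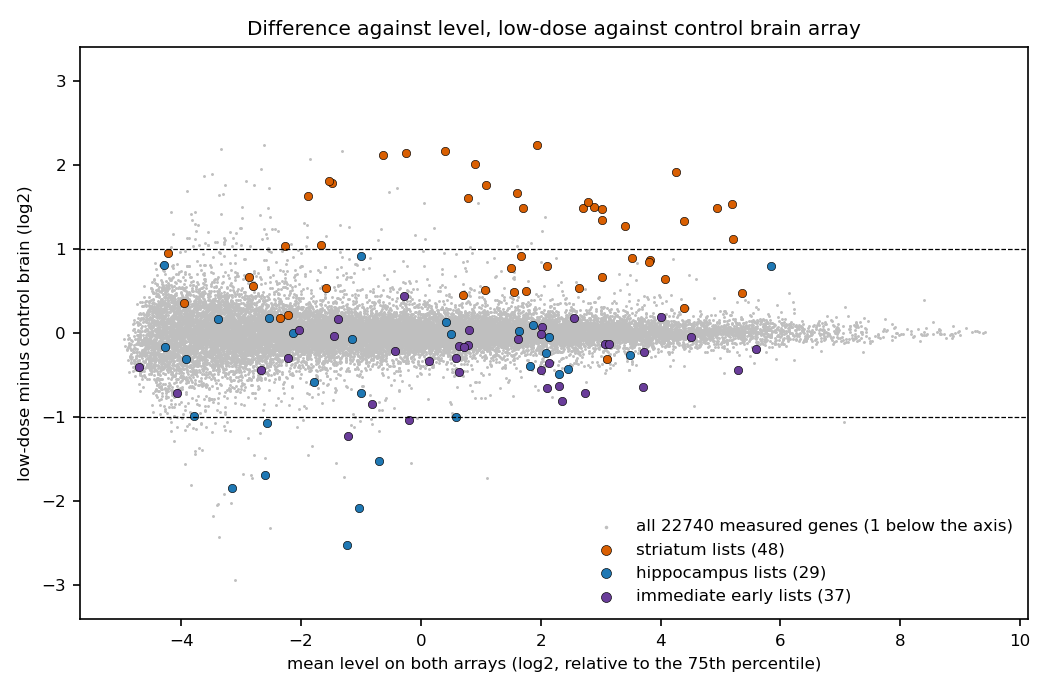
Difference between the low-dose and control brain arrays (vertical, log2) against the mean level on both (horizontal, log2 relative to the 75th percentile) for the 22740 measured genes, with the dashed lines at a difference of 1 and -1. Most striatum genes (48, orange) lie above the cloud at all levels, hippocampus genes (29, blue) reach -2.52, and immediate early genes (37, purple) lie mostly below 0; Gm34028, at -10.89, is off the axis.

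Many genes of the striatum were higher in the low-dose brain. Of 48 measured members of the striatum lists, 25 were called higher (52.1%) and 0 lower, against 0.471% of all measured genes called higher. The median difference over the 48 was 1.04, against -0.00 over all genes, and 47 of them lay above 0, against 49.5% of all measured genes. These lists and all others below were drawn up with earlier results of these arrays known. Their counts therefore describe the arrays and are not independent evidence. In a bulk sample, more cells of a type and more RNA per cell cannot be told apart. On the 3 brain arrays the low-dose one held the highest level for 46 of the 48 genes.

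Medium spiny neurons come in a direct-pathway class, marked by the dopamine D1 receptor, and an indirect-pathway class, marked by the dopamine D2 receptor. Drd1, the D1 receptor, had a level of 2.45 in the low-dose brain and 0.78 in the control brain, a difference of 1.67 ± 0.20 (array error). Tac1, the precursor of substance P, stood at 3.44 in the low-dose brain and 1.96 in the control brain (difference 1.49). Slc35d3, a carrier-like protein that takes part in the trafficking of the D1 receptor, differed by 1.78. The low-dose array was the higher for each, by more than 2-fold. Isl1, a transcription factor of the direct pathway, was well above background in the low-dose brain only and was at least 3.62-fold higher there. Pdyn, the dynorphin precursor, was at 2.90 in the low-dose brain and 2.37 in the control brain and fell short of the rule at 0.53. Chrm4, the muscarinic M4 receptor, at 0.21, Ebf1, a transcription factor, at 0.18, and Eya1, a transcriptional coactivator, at -0.31 were not called either. Eya1 was the only striatum member below 0.

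Among the indirect-pathway genes 4 of 5 measured were called higher, with a median difference of 1.63. Drd2, the D2 receptor, was at -1.07 in the low-dose brain and -2.70 in the control brain, a difference of 1.63 ± 0.22. Adora2a, the adenosine A2A receptor that sits beside the D2 receptor on these cells, was at 1.96 in the low-dose brain and 0.20 in the control brain, a difference of 1.76 ± 0.20. Penk, the enkephalin precursor, was among the most abundant, at 5.95 in the low-dose brain and 4.42 in the control brain (difference 1.53). All were higher on the low-dose array. Gpr6, an orphan receptor of the indirect pathway, differed by 2.14, with 1.13 on its other probe. Sp9, a transcription factor of the same neurons, differed by 0.35, and Gpr52, another orphan receptor, was bright on the low-dose array only, at least 1.79-fold higher.

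Both dopamine receptors signal through cAMP, and 9 of 15 measured genes of striatal cAMP signalling were called higher (median 1.12). Ppp1r1b, which encodes DARPP-32, the protein that dopamine phosphorylates through protein kinase A, was at 5.69 in the low-dose brain and 4.20 in the control brain, a difference of 1.49 ± 0.20. Rgs9, a brake on G protein signalling, was at 5.21 in the low-dose brain and 3.30 in the control brain, and its 5 probes differed by 1.32 to 1.92. Pde10a, the phosphodiesterase of medium spiny neurons, was at 3.64 in the low-dose brain and 2.14 in the control brain. Further called members were Adcy5, the main striatal adenylyl cyclase (1.34), Rasd2, a small GTPase (1.33), Gng7, a G protein subunit (1.28), Pde1b (1.12) and Pde7b (1.05), both phosphodiesterases. Arpp21, a phosphoprotein target of the same kinase, at 0.89, Gnal, the olfactory-type stimulatory G protein, at 0.86, Dgkb, a diacylglycerol kinase, at 0.80, Ptpn5, the striatum-enriched phosphatase, at 0.64, Rasgrp2 at 0.45 and Rap1gap at 0.30 were above 0 and not called. A second Arpp21 probe was at -0.34.

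The membrane and other striatum genes gave 6 calls among 10 measured (median 1.26). Serpina9, a serpin, was at 1.48 in the low-dose brain and -0.68 in the control brain, and Ido1, which degrades tryptophan, was at 0.43 in the low-dose brain and -1.69 in the control brain, differences of 2.16 and 2.11. Syndig1l, a transmembrane protein, differed by 2.01, and Actn2, an actin crosslinker, by 1.48. Scn4b, a sodium channel beta subunit, also differed by 1.48, and Strn, the scaffold striatin, by 1.04. Cpne5 (0.84), Kcnab1, a potassium channel subunit (0.67), Ano3 (0.49) and Itpr1, the IP3 receptor (0.48), were not called. Each of these 10 genes had its highest level of the 3 brain arrays in the low-dose brain.

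Of 11 striatal transcription factors 3 were called higher and all 11 lay above 0 (median 0.77). Rxrg, a retinoid X receptor, was at 3.06 in the low-dose brain and 0.82 in the control brain, a difference of 2.24 ± 0.20 on a probe at chr1:169569624-169569683 (mm9, as the array files give it). It was at 0.12 on the high-dose array. Six3, a homeobox factor needed for these neurons, differed by 1.81, and Rarb, the retinoic acid receptor beta, by 1.61. Ikzf1 (0.95), Meis2 (0.91), Foxo1 (0.77), Foxp2 (0.66), Zfp503 (0.56), Zfp521 (0.54), Foxp1 (0.51) and Bcl11b (0.50), factors of striatal development or identity, did not reach the rule.

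**Figure D2:**
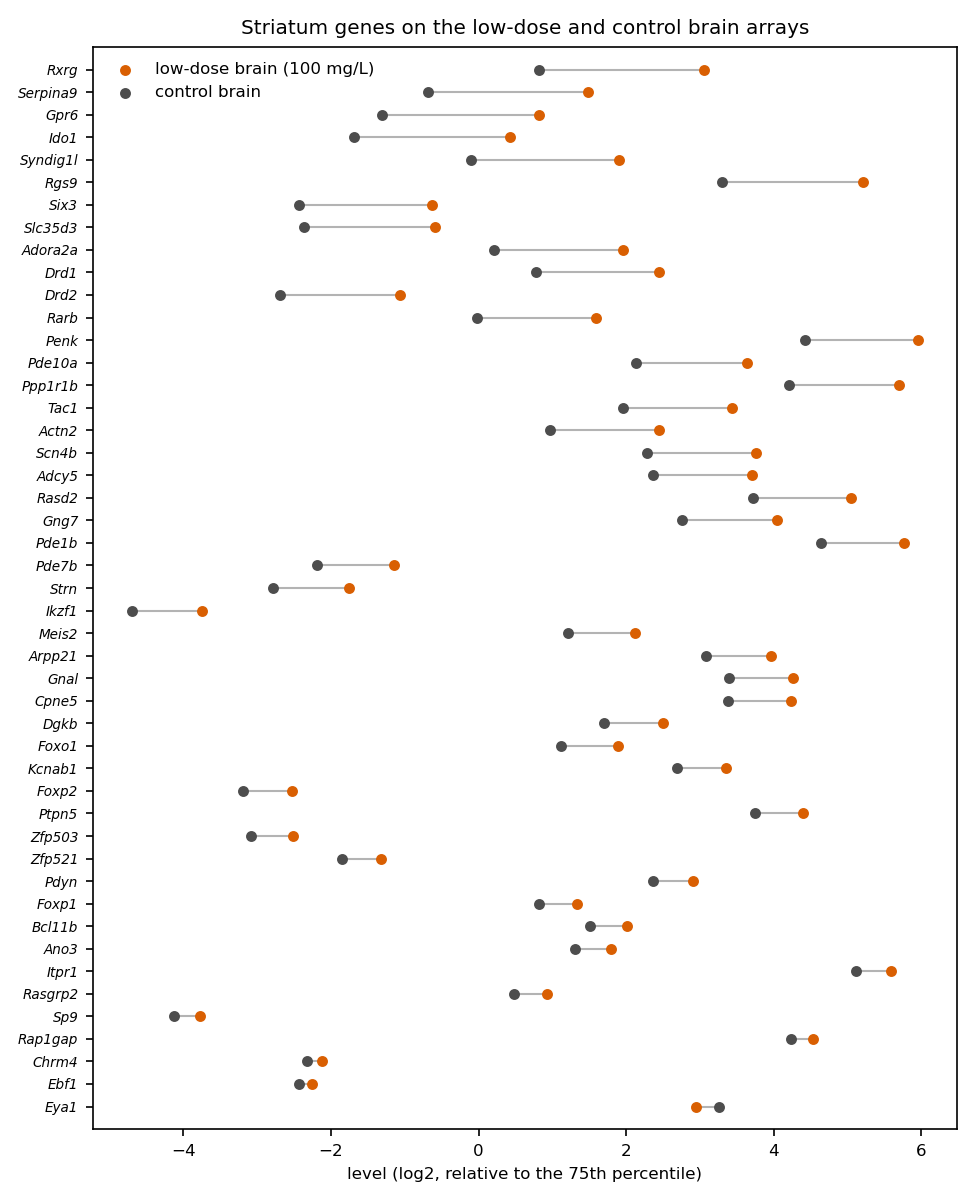
Level (horizontal, log2 relative to the 75th percentile) of 47 measured striatum genes in the low-dose brain (orange) and the control brain (grey), ordered by difference, with the line joining the same gene. The low-dose point lies right of the control point for 46 genes, by 2.24 for Rxrg, and left of it for Eya1 (-0.31).

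The retinoid pathway as a whole gave 3 calls among 15 measured genes, all higher (median 0.03). Beside Rxrg and Rarb these included Crabp1, a retinoic acid binding protein, which differed by 1.26 and lay beside a strongly deviating spot. Rxra and Rxrb, the other retinoid X receptors, differed by 0.08 and 0.03, and Rara and Rarg, the other retinoic acid receptors, by -0.09 and 0.01. Of the enzymes that make retinoic acid, Aldh1a2 differed by -0.43 and Aldh1a1 by 0.03.

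Cholinergic neurons of the basal forebrain and striatum gave a mixed picture, with 2 of 8 measured genes called higher (median 0.14). Slc10a4, a vesicular transporter-like protein of these neurons, was at -1.49 in the low-dose brain and -3.73 in the control brain, and at 2.24 its difference was the largest upward among genes without clone names. Slc5a7, the choline transporter, was at -2.54 in the low-dose brain and -4.44 in the control brain (1.90). Slc18a3, the vesicular acetylcholine transporter, reached 0.96, while Chat, the enzyme that makes acetylcholine, differed by 0.04 and Ache, which degrades it, by -0.11.

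Other receptors and neuronal genes gave calls in both directions. Drd3, the D3 receptor, was bright on the low-dose array only and at least 2.91-fold higher. Drd5, the D5 receptor, was at -3.27 in the low-dose brain and -2.08 in the control brain and was called lower (-1.19). Htr1b, a serotonin receptor, was called higher at 1.37 while its other probe differed by 0.04. Dlx6, a homeobox factor of GABA neurons, was called higher at 1.07, and Slc32a1, the vesicular GABA transporter, differed by 0.42. Synpo2, a muscle-type actin binding protein of the amygdala and claustrum list, was called higher at 1.14 while its other probe differed by 0.13, and Trh, the precursor of thyrotropin-releasing hormone, fell just short at 0.98.

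Some genes of the hippocampus were lower in the low-dose brain. Of 29 measured members, 6 were called lower (20.7%) and 0 higher, against 0.308% of all measured genes called lower. As for the striatum lists, these counts describe the arrays and are not independent evidence. The median was -0.26, and 20 members lay below 0, against 50.5% of all measured genes. Spink8, a protease inhibitor of the Kazal type that marks CA1 pyramidal cells, was at -2.49 in the low-dose brain and 0.02 in the control brain, a difference of -2.52 ± 0.21. Lct, lactase, which the brain expresses in dentate granule cells, was at -2.08 in the low-dose brain and 0.00 in the control brain (-2.08). Fibcd1, an acetyl-group receptor of CA1, differed by -1.84 and Gpr161, a ciliary receptor, by -1.52. The control array was the highest of the 3 brain arrays for 19 of the 29 genes.

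In the dentate gyrus list, 3 of 10 measured genes were called lower (median -0.55), and in the CA1 list 3 of 7, with all 7 below 0 (median -0.49). Beside Lct, the dentate calls were Dsp, desmoplakin (-1.69), and Il16, an interleukin expressed by neurons (-1.07). Prox1, the granule cell transcription factor, differed by -0.71. Stxbp6 (-0.39), C1ql2 (-0.30), Maml2 (-0.07), Trpc6 (0.14) and Tdo2 (0.17) were further dentate members. Ccn3 (-0.49), Wfs1, wolframin (-0.26), Pou3f1 (-0.05) and Man1a (-0.01) completed the CA1 list. The CA2 and CA3 lists had medians of 0.01 and 0.06 with no calls. Pcp4, a calmodulin regulator of CA2 that the striatum also expresses, reached 0.79, and Coch 0.92. The remaining members were Rgs14 (-0.24), Map3k15 (-0.16), Cacng5 (0.18), Nectin3 (-0.58), Grik4 (0.03) and Bok (0.09), with Amigo2 and Iyd not well above background on either array, and, in the list of mossy and shared genes, Csf2rb2 (-0.99), Zbtb20 (-0.42), Calcrl (0.00) and Calb2 (0.81).

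Of 25 measured cortex genes, 0 were called in either direction, with a median of 0.03. Over all measured genes 0.778% were called, so a list of this size can hold no call without differing from them. Tbr1, a factor of deep-layer pyramidal cells, was at 3.64 in the low-dose brain and 3.60 in the control brain. Oprk1, the kappa opioid receptor, was the highest at 0.79. Fezf2, of layer 5, was the lowest at -0.46, and Neurod6, of pyramidal cells, differed by -0.43. The genes shared by all neurons had a median of -0.01 over 12 measured, and Eno2, the neuronal enolase, was at 6.16 in the low-dose brain and 5.99 in the control brain.

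**Figure D3:**
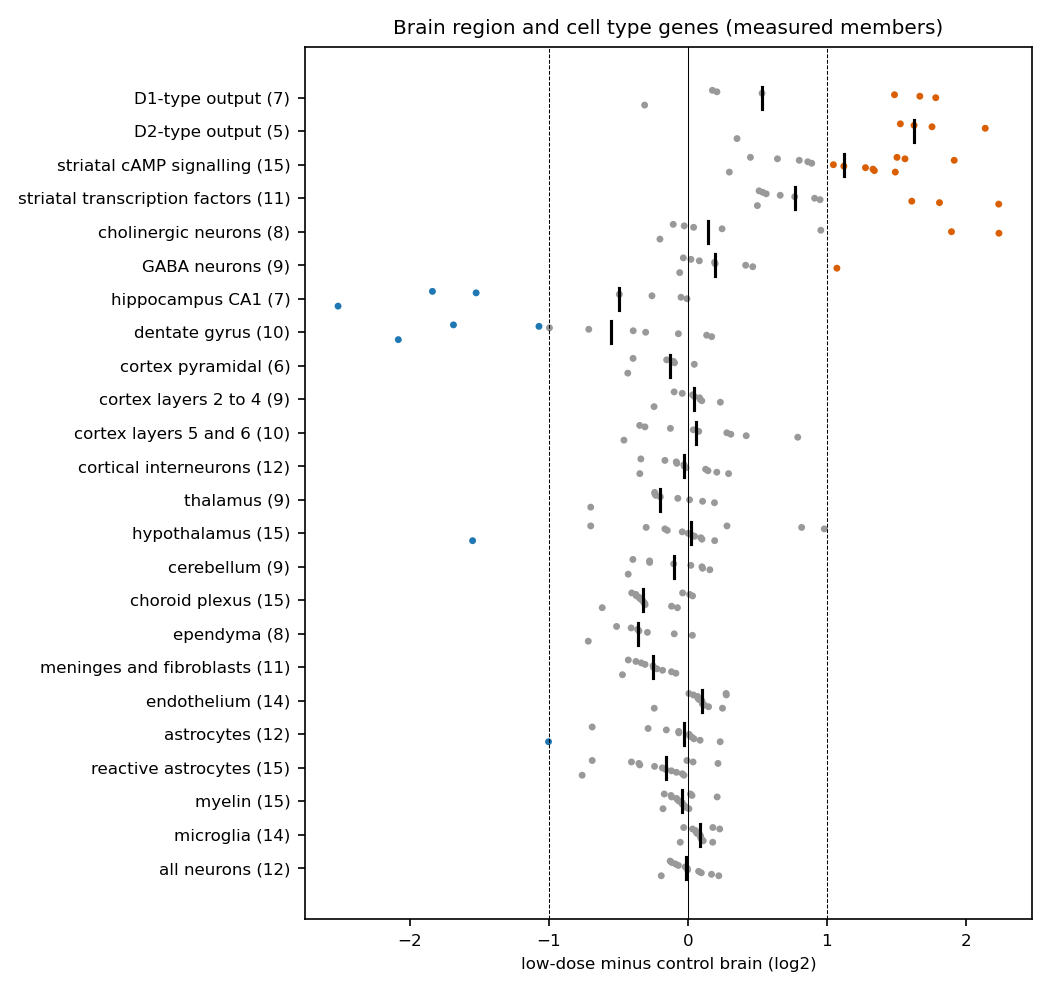
Differences between the low-dose and control brain (horizontal, log2) of measured genes in 24 lists of brain regions and cell types, each point 1 gene, orange when called higher, blue when called lower, the black bar the list median and the number of measured genes in brackets. The striatal lists have medians of 0.53 to 1.63, CA1 and dentate lie at -0.49 and -0.55, and cortex, glia and vessels near 0.

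Among pituitary genes, Prl, Gh and Cga were well above background in the control brain only, and Pomc was called lower. Prl, prolactin, was not well above background in the low-dose brain and at -1.43 in the control brain, at least 12.8-fold lower in the low-dose brain. Its probe lies at chr13:27156985-27157044 (mm9). Gh, growth hormone, was at least 5.80-fold lower and Cga, the subunit shared by the glycoprotein hormones, at least 2.01-fold lower. On the high-dose array Prl was at -4.97, and Gh and Cga were not well above background. Pomc, the precursor of corticotropin and of a hypothalamic peptide, was at -0.94 in the low-dose brain and 0.61 in the control brain, a difference of -1.55 ± 0.21, and was at -1.04 in the high-dose brain. None of these had a strongly deviating neighbour. Of the 15 genes of the list, 8 were not well above background on either array, among them Tshb, Fshb, Pitx1, Ghrhr, Gnrhr and Tbx19, while Lhb and Lhx3 differed by 0.14 and 0.09 and Pou1f1 was bright on the low-dose array only, at least 1.03-fold. Whether a trace of pituitary tissue in the control piece bears on these values was not tested.

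Over all measured genes 50.5% lay below 0, 49.5% lay above and 0.778% were called. Among genes of the brain's linings, 13 of 15 measured choroid plexus genes lay below 0 with no call (median -0.32). So did 7 of 8 ependymal genes (median -0.36) and 11 of 11 of meninges and fibroblasts (median -0.25). Ttr, transthyretin, the main choroid plexus product, was at 6.09 in the control brain, 5.78 in the low-dose brain and 4.19 in the high-dose brain. Msx1, a homeobox factor, differed by -0.62, and Tmem212, of ciliated ependyma, by -0.72. Of the endothelial genes, 13 of 14 lay above 0, with a median of 0.10; Cldn5, the tight-junction claudin, differed by 0.28. Microglial, myelin and oligodendrocyte precursor genes had medians of 0.09, -0.04 and -0.07, and none was called. The 12 measured astrocyte genes had a median of -0.03, with 6 above 0, 6 below 0 and 1 call. That call was Agt, angiotensinogen, an astrocyte product, at -1.60 in the low-dose brain and -0.60 in the control brain, thus lower. Gfap, the astrocyte filament protein, was at 0.52 in the low-dose brain and 1.21 in the control brain (-0.69). Reactive astrocyte genes had a median of -0.16, with 13 of 15 below 0, and Serpina3n was lowest at -0.76.

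Immediate early genes, which neurons switch on within minutes of firing, lay mostly below 0. Of 37 measured, 2 were called lower and 0 higher, 30 lay below 0 and the median was -0.22, against 0.308% called lower and 50.5% below 0 over all measured genes. Ccn1, a matrix protein, was at -1.82 in the low-dose brain and -0.60 in the control brain, a difference of -1.22 ± 0.21. Btg2, an antiproliferative factor, was at -0.72 in the low-dose brain and 0.32 in the control brain (-1.03 ± 0.20). On the high-dose array Ccn1 was at -1.83 and Btg2 at -0.65. Of the 3 brain arrays, the control array held the highest level for 17 of the 37 genes and the low-dose array for 1. Fos was at 1.95 in the low-dose brain and 2.75 in the control brain (-0.81), Ier2 differed by -0.84, and Jun, Junb, Maff, Egr2 and Nr4a2 by -0.71, -0.64, -0.71, -0.66 and -0.63, all transcription factors or regulators short of the rule. Nr4a1, an orphan nuclear receptor, at -0.44, and Npas4, the activity-dependent factor, at -0.36, were below 0 too. Arc (-0.19), Egr1 (-0.05) and Bdnf (-0.21), which serve synaptic plasticity, differed little, and Inhba (0.44), Ier5 (0.20), Homer1 (0.18), Nptx2 (0.17), Egr3 (0.07), Nr4a3 (0.03) and Fosl2 (0.03) lay above 0. The remaining members below 0 were Gadd45b (-0.47), Dusp1 (-0.44), Zfp36 (-0.43), Atf3 (-0.41), Fosb (-0.34), Trib1 (-0.29), Ptgs2 (-0.29), Egr4 (-0.22), Klf2 (-0.16), Plk3 (-0.16), Klf4 (-0.15), Dusp6 (-0.13), Per1 (-0.13), Plk2 (-0.07), Sik1 (-0.03) and Sgk1 (-0.01).

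The cAMP response element, TGACGTCA, is the site through which the factor CREB acts on many such promoters, and its core is TGACG. In the 250 bases before the start of each gene (RefSeq, GRCm38.p6, the first listed start, both strands searched), the core was found in 18 of 30 immediate early genes with a promoter in the table (60%), and in 17.9% of all 27025 promoters. The full element was in 3 of the 30 (10%), and in 1.62% of all. Of 18 striatum genes called higher that were in the table, 4 held the core (22.2%) and 1 the full element (5.56%). Every full element contains the core. A match describes letters and not a bound factor. Stretches of 100 bases are shown for the called gene Ccn1, for Btg2, which holds the full element, for Fos and Nr4a1, well-known targets, and for the striatal Gpr6, with motif letters in capitals.
Fos: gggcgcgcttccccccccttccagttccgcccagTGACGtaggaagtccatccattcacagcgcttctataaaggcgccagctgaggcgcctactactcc
Nr4a1: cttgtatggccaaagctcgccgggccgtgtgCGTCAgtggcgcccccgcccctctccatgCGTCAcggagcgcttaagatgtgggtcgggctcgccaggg
Ccn1: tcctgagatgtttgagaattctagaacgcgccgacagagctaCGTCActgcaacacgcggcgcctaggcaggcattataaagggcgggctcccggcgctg
Btg2: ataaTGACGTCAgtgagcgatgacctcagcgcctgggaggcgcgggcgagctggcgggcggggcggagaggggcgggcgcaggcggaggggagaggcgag
Gpr6: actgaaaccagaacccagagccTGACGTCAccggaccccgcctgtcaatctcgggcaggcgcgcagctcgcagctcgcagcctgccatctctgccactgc
On GRCm38.p6 these are chr12:85473790-85473889 (plus strand, Fos), chr15:101266746-101266845 (plus, Nr4a1), chr3:145649986-145650085 (minus, Ccn1), chr1:134079226-134079325 (minus, Btg2) and chr10:41072291-41072390 (minus, Gpr6). Each ends at the base before the start except that of Btg2, which covers bases 170 to 71 before it.

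No gene of the metal lists was called. Over all measured genes 0.778% were, so no call in lists of this size does not set them apart. Mt1, the ubiquitous metallothionein, was at 6.92 in both brains, Mt2 at 5.54 in the low-dose brain and 5.67 in the control brain (-0.12), and Mt3, the brain form, at 2.51 in the low-dose brain and 2.73 in the control brain (-0.22). Mtf1, the zinc sensor that switches them on, differed by 0.07, and Mt4 was not well above background on either array. Alad, the lead-sensitive dehydratase, was at 2.70 in the low-dose brain and 2.76 in the control brain (-0.07). The heme list had a median over 13 measured genes of 0.03, and further members were Blvrb (0.23), Uros (0.12), Hmox1 (0.09), Fech (0.04), Ppox (0.03), Cpox (0.03), Urod (0.02), Blvra (-0.03), Alas1 (-0.05), Hmox2 (-0.06) and Alas2 (-0.08). Iron, copper and zinc or manganese genes had medians of -0.02, -0.05 and 0.01 and no calls. Differences of this size lie within 3 times the array error and were not detectable as changes with 1 array a side.

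The NMDA and AMPA receptor subunits also stayed within 0.5. Gria1, an AMPA subunit, was at 4.20 in the low-dose brain and 4.59 in the control brain (-0.39), and Grin2a, an NMDA subunit, at 2.41 in the low-dose brain and 2.76 in the control brain (-0.35), with its other probe at -0.36. Grin3a (-0.23), Grin2b (-0.22), Gria2 (-0.11), Grin1 (-0.03), Grin2d (0.03), Gria4 (0.04), Grin2c (0.10), Gria3 (0.13) and Grin3b (0.22) made up the rest, with a median of -0.03 over 11. The 12 measured GABA-A receptor genes had a median of -0.03, with 6 above 0, 6 below 0 and 0 called. The lowest was Gabra5, a subunit prominent in the hippocampus, at -0.68, and the highest differed by 0.39.

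Stress responses gave no calls in the NRF2, heat shock, antioxidant and interferon lists, where 0.778% of all measured genes were called. Their medians were 0.07, 0.06, 0.00 and 0.01. The unfolded protein response list had 0 calls and a median of 0.23, with 13 of 14 genes above 0, against 49.5% of all measured genes. Sdf2l1, a chaperone partner, was at 0.64 and Hyou1 at 0.36. The high-dose brain had the highest level for 11 of these 14 genes.

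**Figure D4:**
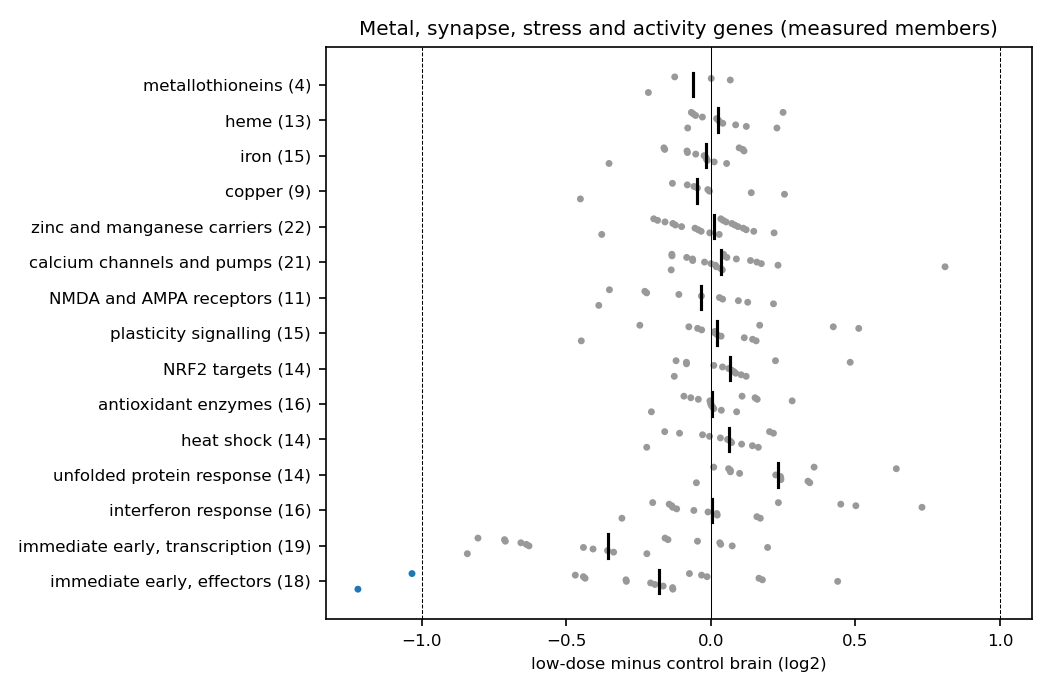
Differences between the low-dose and control brain (horizontal, log2) in 15 lists of metal, synapse, stress and activity genes, each point 1 measured gene, with the black bar at the list median and blue for genes called lower. Only Ccn1 (-1.22) and Btg2 (-1.03) pass a dashed line, and the immediate early transcription list has the lowest median.

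The 15 largest named differences upward were those of Slc10a4, Rxrg, Serpina9, Gpr6, Ido1, Syndig1l, Rgs9, Slc5a7, Six3 and Slc35d3, given above, and 5 more. Sh3rf2, a ubiquitin ligase adaptor, was at -0.23 in the low-dose brain and -2.39 in the control brain (2.16). Mhrt, a long noncoding RNA of the heart muscle myosin locus, differed by 2.07, and Ano2, a calcium-activated chloride channel, by 1.76. Col9a1, a collagen chain (1.87), and Olfr1030, an olfactory receptor (1.80), both lay beside a strongly deviating spot. Downward, Scimp, an immune adaptor, was at -4.57 in the low-dose brain and -1.64 in the control brain, a difference of -2.93. It rested on 1 probe, and its low-dose signal was 39.9, where the lowest well above background was 27.4. On the high-dose array Scimp was not well above background.

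Among the other large differences downward were Stac, an adaptor (-2.03), Lefty1, an inhibitor of TGF-beta family signals (-2.02), Syt10, a synaptotagmin (-1.73, other probe -0.66), Ntf3, the neurotrophin of the dentate gyrus (-1.69), and Htr5b, a serotonin receptor (-1.56). Wnt11, a Wnt ligand, at -1.91, with its other probe at -0.13, and Med22, a mediator subunit (-1.55), lay beside a strongly deviating spot. Spink8, Lct, Fibcd1, Dsp, Pomc and Gpr161 have been given. Other list members called were Grp, a neuropeptide (-1.09), and Pde11a, a phosphodiesterase (-1.03, other probe -0.06).

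Called genes in general were dim, with a median level of -2.62 against -0.53 over all measured genes. For the 70 called lower, the high-dose level was nearer the low-dose level in 41 and nearer the control level in 29. For the 107 called higher, it was nearer the low-dose level in 2 and nearer the control level in 105. The genes were picked for their low-dose against control difference, so these counts describe the arrays only. For 42 called genes with more than 1 measured probe, all probes had the same sign in 39 and all passed the rule in 19. Of 992 genes bright on the low-dose array only, 108 had a bound of at least 2-fold higher. Of 419 bright on the control array only, 113 had a bound of at least 2-fold lower. Together, 119 of these 221 (53.8%) lay beside a strongly deviating spot. Among genes without clone names, the largest bounds upward were Gdnf, a neurotrophic factor, at least 5.40-fold, Cntnap3, a cell adhesion protein, 5.09-fold, Myct1 5.01-fold, Prss56, a protease, 5.0-fold, and Abcc12, a transporter, 4.68-fold. Of these, Gdnf, Cntnap3 and Abcc12 had such a neighbour. Downward, Prl was followed by Apol7c, at least 8.28-fold lower, Gh, Tmem154 (5.78-fold) and Agr3 (4.67-fold), of which Tmem154 and Agr3 had such a neighbour.

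Kidneys of the low-dose and control groups, which share no array with the brains, allow a look at the same dose in another organ. There 109 of 20998 measured genes (0.519%) passed the size rule, 49 higher and 60 lower. Of 19471 genes measured in both organs, 105 were called in brain, and 0 were called in both organs in any direction. With 0.519% of kidney genes called, a set of 105 can often hold none of them. Whether the organs differ was not tested.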

How the data were processed

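Intensity values of 8 arrays, 1 per sample, were deposited by the authors as scanner output. Per the submitters' processing notes, it came from Agilent Feature Extraction 12.0.3.1. The file headers show that the deposited processed intensity had its background subtracted and was detrended within an array, with no scaling between arrays. Each Cy3 labelling used 50 ng of RNA, per the labels. Other columns hold, per the file headers, 0 or 1 marks of the scanner software. The authors' value table also holds intensity. Compared with the scanner output it is the processed signal over the array's 75th percentile, linear, with column medians of 0.113 (low-dose brain) and 0.112 (control brain).

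Here spots marked as outliers were left out, repeated spots averaged as log2, and the 75th percentile subtracted. A gene was reported by its brightest probe measured on both arrays. Names were updated through RefSeq accessions (32989 probes matched, 1534 changed, 23616 kept). Repeated probes (292) had a spot SD of 0.048 in the low-dose brain and 0.053 in the control brain. The number of arrays limits the precision. Named genes were the 15 largest each way without clone names, the 5 largest bounds, list members past the rule and all members of key lists, some of which are not reported here. The members and lists were chosen with earlier results of these data known. Alternatives covered scaling, background correction (limma 3.58.1, R 4.3.3), dim-probe filters, probe choice, flagged spots and the size. The rule was tested on simulated data. Python 3.11.15 was used.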

Additional observations from a re-analysis of the deposited data

How the results depend on the processing

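No paired analysis was possible because each group holds 1 array. The 107 higher and 70 lower genes (177) became 49 and 25 (74) with normexp and quantile normalization. The normexp setting added an offset of 50 to every signal. A processed signal of at least 100 on both arrays left 58 and 25 (83). There were 227 and 166 (393) at a size of 0.58, and 110 lower genes when dim probes were kept. The cause was not tested, except that the signal minimum and the smaller size change which genes can be called. By construction, the offset also makes log2 differences of dim spots smaller. The remaining alternatives kept the counts within 1.5 times, including the one added after seeing the data, which left out probes beside a strongly deviating spot (90 higher and 51 lower), and under which Wnt11 stood at -0.13. Striatum genes called higher numbered 23 to 33 of 46 to 50 over all settings and 0 were lower, and hippocampus genes called lower numbered 4 to 9, with 0 higher except for 2 at a size of 0.58. Under normexp 21 genes that met the naming rule lost their call, among them Btg2 (-0.95), Drd5 (-0.74), Htr1b (0.88), Strn (0.77), Pde7b (0.86), Dsp (-0.99), Il16 (-0.68), Dlx6 (0.59), Stac (-0.89), Ntf3 (-0.96), Htr5b (-0.69), Agt (-0.86), Grp (-0.90), Col9a1 (0.91), Kcna5 (0.60), Kcnq1 (0.61), Synpo2 (0.90), Pde11a (-0.80), Olfr1446 (-0.68) and Olfr891 (-0.54). On the mean of a gene's probes, Htr1b (0.71), Synpo2 (0.63), Pde11a (-0.55) and Kcnq1 (0.18) lost it, and Agt did so with median (-0.995) and quantile (-0.993) scaling. No named gene changed sign while called. With the signal minimum, 84 of the 177 called genes were still measured. Of these, 83 kept their call and 1 had the opposite sign. Dim spots limit the bounds, which depend on the lowest signal well above background.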

Other observations

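Gene families were set beside the 0.778% of all measured genes called in the low-dose against the control brain. Of 167 measured olfactory receptor genes, which serve smell in the nose, 1 was called higher and 2 lower (1.80%): Olfr1030 at 1.80, Olfr1446 at -1.39 and Olfr891 at -1.06. Olfr1030 and Olfr1446 lay beside a strongly deviating spot, and 871 of the 1092 on the array were not well above background on either array. Solute carriers gave 3 calls among 308 measured (0.974%), all higher (Slc10a4, Slc5a7 and Slc35d3), and ABC transporters 0 among 37. Potassium channel subunits gave 2 among 81 (2.47%): Kcna5, a voltage-gated subunit, at 1.21 and Kcnq1 at 1.13, whose 3 measured probes reached down to -0.54 and averaged 0.18.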
